A study of Mus musculus with 20 samples.

Results

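The genes carried by mouse mitochondrial DNA were followed across a cortical ribosome pull-down. They were taken as every gene of the count table whose mouse symbol starts with mt-, which gave 37 of the 25317 genes in the table: 13 protein genes, 2 ribosomal RNA genes and 22 transfer RNA genes. The rule itself uses no measured value, but it was set with earlier results of these data known. The mice were of the C57BL/6 background and 3 months old, and either wild type or carriers of a heterozygous Foxp2 deletion, and each library came from the cortex of 1 animal. GFP-tagged ribosomes were pulled down with anti-GFP serum from the cortical lysate (bacTRAP, here IP), and a part of the lysate taken just before the pull-down gave the Input. IP and Input libraries were available for 5 wild types (wt734, wt736, wt785, wtBT13, wtBT14) and 3 heterozygotes (het729, het786, hetBT13), and 4 further libraries of het730 and hetBT14, titled IX or IXX, are labelled Input and have no IP. No source used here gives the promoter that drives the GFP tag, and so the cells that carry it, or the way the Foxp2 deletion was made.

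The IP library of het729 held more mitochondrial RNA than the other IP libraries, and results that rest on it are given with and without it. Totals were 2782934 to 4072270 counts in the 8 Input libraries and 4061562 to 5754169 in the 8 IP libraries. Foxp2, the deleted gene, held 27.9 ± 3.53 CPM (counts scaled to a common library size; mean ± SD, n = 3) in heterozygous Input against 47.1 ± 10.9 (n = 5) in wild-type Input, and 46.7 ± 12.9 against 69.8 ± 21.2 in IP. Its differences did not pass edgeR's quasi-likelihood test (adjusted p = 0.501 in Input and 0.981 in IP). Of 6 markers of glutamatergic cortex neurons, 5 were called higher in wild-type IP than in Input and 1, Camk2a, lower. All 6 interneuron markers, 5 of 6 astrocyte markers and 5 of 6 oligodendrocyte markers were called lower, and the astrocyte marker Aldh1l1 was called higher. Of all genes tested, 28.5% were called higher and 25.6% lower.

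Mitochondrial DNA is a small circle that is read from both strands into long transcripts, which are cut apart mostly at the transfer RNAs between the other genes. Its protein genes encode core subunits of complexes I, III and IV and of the ATP synthase, and all other subunits come from nuclear genes. The messages are translated inside the organelle by mitochondrial ribosomes, which contain the RNAs of mt-Rnr1 and mt-Rnr2, whereas bacTRAP tags ribosomes of the cytosol. Neurons depend heavily on this machinery for the energy that synapses and ion pumps use.

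The genes lie end to end, and several share bases with a neighbour, which limits what a count can be assigned to. Sequences are from the GENCODE vM21 transcripts (GRCm38, the same assembly as the mm10 of the deposited counts), printed 5′ to 3′ on the gene's own strand. The messages of mt-Atp8 and mt-Nd4l are shown because each runs into the next gene on the same strand, by 43 bases into mt-Atp6 and by 7 bases into mt-Nd4, and these bases are in capitals. mt-Atp8 lies at chrM:7766-7969 on the plus strand, and the part of mt-Nd4l shown is its last 60 bases, at chrM:10114-10173 on the plus strand.
mt-Atp8: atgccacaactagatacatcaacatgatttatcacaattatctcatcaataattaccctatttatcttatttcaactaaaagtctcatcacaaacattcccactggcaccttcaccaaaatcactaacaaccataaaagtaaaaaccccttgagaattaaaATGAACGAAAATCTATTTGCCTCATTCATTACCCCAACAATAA
mt-Nd4l: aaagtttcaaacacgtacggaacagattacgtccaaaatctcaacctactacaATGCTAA

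The 3 transfer RNA genes with the most Input counts are shown because all 3 are on the minus strand, which carries 8 of the 22 transfer RNA genes, whereas the libraries do not record strand. mt-Ts1 lies at chrM:6870-6938, mt-Tq at chrM:3772-3842 and mt-Tp at chrM:15356-15422. The capitals in mt-Ts1 mark its 3 bases that also belong to mt-Co1 on the opposite strand. They were picked after their counts were seen.
mt-Ts1: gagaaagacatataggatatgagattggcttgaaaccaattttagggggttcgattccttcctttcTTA
mt-Tq: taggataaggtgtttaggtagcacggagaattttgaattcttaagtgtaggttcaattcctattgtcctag
mt-Tp: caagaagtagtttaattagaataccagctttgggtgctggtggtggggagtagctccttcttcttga

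Some members also have near copies in the nuclear genome, and reads from the 2 sources cannot be told apart there. Of all stretches of 50 bases (words) in a gene, those found in annotated transcripts of nuclear gene models made up 100% in mt-Co2, 99.9% in mt-Co3, 99.5% in mt-Atp6, 98.8% in mt-Nd4l, 98.0% in mt-Nd3, 62.2% in mt-Nd4 and 51.1% in mt-Co1. The share was 8.19% in mt-Nd2, 7.61% in mt-Nd5 and 1.04% in mt-Rnr2, and 0% in mt-Rnr1, mt-Nd1, mt-Nd6, mt-Cytb, mt-Atp8 and every transfer RNA gene. The counts of mt-Co2, mt-Co3, mt-Atp6, mt-Nd3 and mt-Nd4l are therefore uncertain, and those of mt-Nd1, mt-Cytb, mt-Nd6, mt-Atp8 and mt-Rnr1 carry no such overlap with annotated models.

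In the wild-type lysate, mitochondrial genes were among the most abundant RNAs. mt-Co1, which encodes the catalytic subunit of complex IV (cytochrome c oxidase), was the gene with rank 6 of the whole table by mean CPM, mt-Cytb, the cytochrome b of complex III, had rank 7, mt-Nd1 of complex I rank 13, mt-Rnr1 rank 16 and mt-Rnr2 rank 31. Together the 37 genes took 1.50% ± 0.357 (SD, n = 5) of the counts of wild-type Input libraries, of which protein genes took 1.16% ± 0.224, ribosomal RNA 0.328% ± 0.141 and transfer RNA 0.0110% ± 0.00213. The 8 Input libraries held 35189 to 72243 mitochondrial counts each.

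Per length, the counted levels of genes that are cut from shared transcripts differed widely in wild-type Input. How evenly the library method captured messages, ribosomal RNAs and transfer RNAs was not tested, so these are levels of counts. mt-Cytb was at 2312 ± 292 CPM per kb (SD, n = 5), mt-Nd1 at 2187 ± 485, mt-Rnr1 at 2060 ± 936, mt-Co1 at 1772 ± 371 and mt-Atp6, subunit a of the ATP synthase, at 1556 ± 272. These 5 followed each other with gaps smaller than their SD. A middle group held mt-Ts1 at 1056 ± 174 CPM per kb, mt-Rnr2 at 948 ± 367, mt-Nd4 at 888 ± 169, mt-Atp8 at 771 ± 134 and mt-Co3 at 721 ± 202, again with neighbours closer than their SD. The lowest group was mostly of complex I: mt-Nd2 at 486 ± 117, mt-Nd6 at 385 ± 70.5, mt-Nd4l at 383 ± 81.1, mt-Nd5 at 381 ± 63.0, mt-Co2 of complex IV at 362 ± 124 and mt-Nd3 at 130 ± 49.8 CPM per kb. Genes of 1 complex thus did not share a level: within complex I the per-length level of mt-Nd1 was far above that of mt-Nd3, and within complex IV that of mt-Co1 was above that of mt-Co2, while the counts of mt-Co2 and mt-Nd3 are among the uncertain ones.

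In wild-type IP the order began with mt-Co1 at 126 CPM per kb, mt-Rnr1 at 104, mt-Cytb at 90.4 and mt-Nd1 at 88.1, and again ended with mt-Co2 at 14.1 and mt-Nd3 at 3.26.

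**Figure D1:**
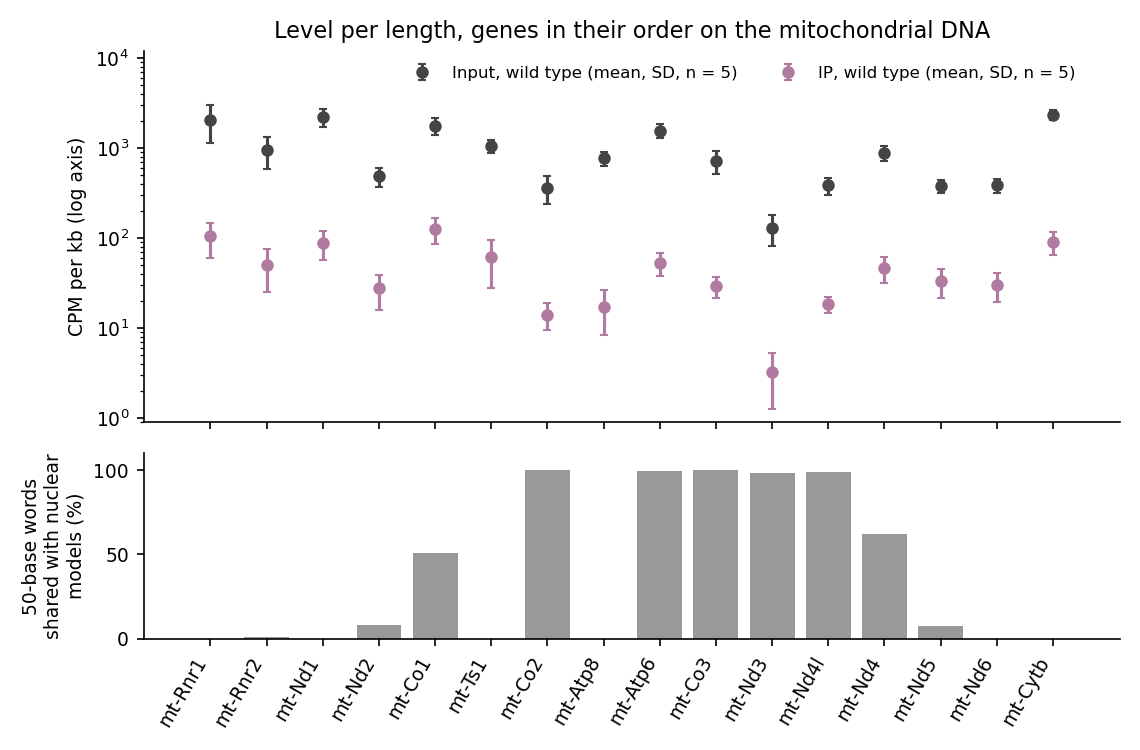
Upper panel: CPM per kb (log axis) of 16 mitochondrial genes in wild-type Input and IP, in gene order, points are means over 5 animals and bars SD. Lower panel: the percent of each gene's 50-base words that annotated nuclear models share. All 16 genes lie lower in IP than in Input, and mt-Nd3 is lowest in both, at 130 CPM per kb in Input.

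The share of mitochondrial RNA fell from Input to IP in each of the 8 animals. In the wild types wt734, wt736, wt785, wtBT13 and wtBT14, Input held 1.86%, 1.66%, 1.64%, 0.928% and 1.41%, and IP 0.114%, 0.127%, 0.0664%, 0.0698% and 0.0741%. In the heterozygotes het729, het786 and hetBT13, Input held 1.42%, 1.58% and 1.40%, and IP 0.398%, 0.0616% and 0.0694%. Input and IP did not overlap, and the IP of het729 lay between them. Its 0.398% has a 95% Wilson interval of 0.393% to 0.403%, and that of het786 one of 0.0595% to 0.0638%; these intervals cover counting error only, since the libraries carry no molecular identifiers. The IP share was 0.0902% ± 0.0280 (SD, n = 5) in wild types and 0.176% ± 0.192 (n = 3) in heterozygotes, or 0.0655% ± 0.00549 (n = 2) without het729. Input exceeded IP by 13.1-fold to 25.6-fold in 7 animals, with a median of 19.0-fold, and by 3.57-fold in het729. In bulk samples, fewer cells of a type and less RNA per cell cannot be told apart.

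**Figure D2:**
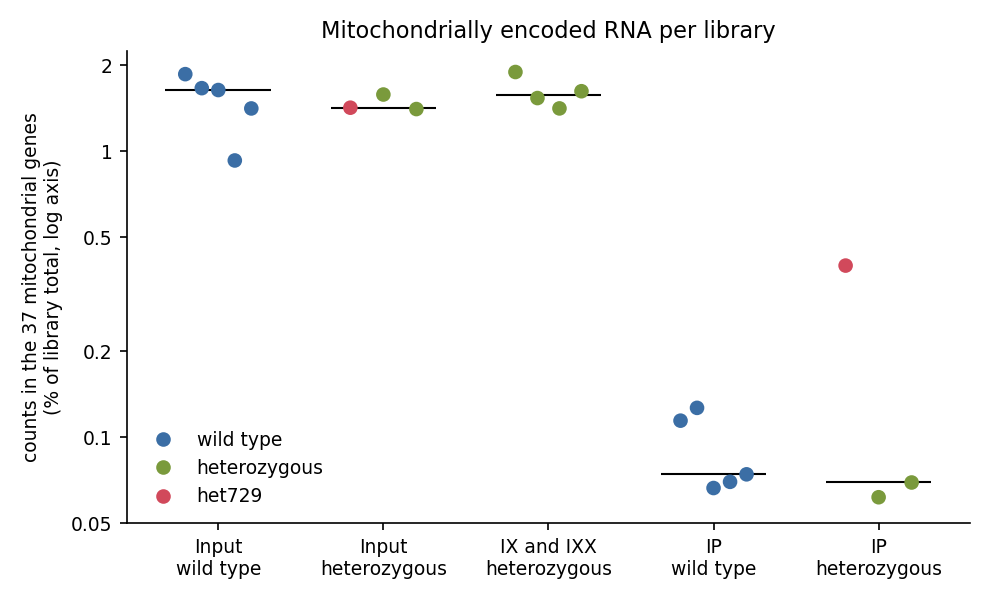
Percent of a library's counts in the 37 mitochondrial genes (log axis), each point 1 library, lines the group median. The Input, IX and IXX libraries lie between 0.928% and 1.89%, 7 IP libraries between 0.0616% and 0.127%, and the IP of het729 at 0.398%.

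The 4 libraries titled IX and IXX resembled the Input libraries. They held 1.89% and 1.53% mitochondrial counts for het730 and 1.41% and 1.62% for hetBT14, all within or close to the range of the 8 Input libraries. They entered no main comparison.

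The genes that carry these shares fell together. Of the 37 members, 21 passed the filter on low counts in the comparison of IP with Input, 15 of them also within the IP libraries alone, and 16 transfer RNA genes were too low to test. All 21 tested members were called lower in wild-type IP by edgeR's quasi-likelihood test at an adjusted p below 0.05, whereas 25.6% of all 14797 genes tested were called lower and 28.5% higher. Scaled by library totals instead, 2377 genes were called lower and 6379 higher, with a median of all genes of 0.26, and the 15 members described next had a median of -4.05. The 6 members that passed only through Input, mt-Nd3, mt-Tf, mt-Tl1, mt-Tq, mt-Tm and mt-Tp, had to be lower in IP, so the 15 others are the ones described. Their median log2 change was -4.27 in wild types, against 0.035 for all genes tested, and each was lower in IP in 8 of 8 animals. How many of all genes were lower in all 8 animals is not given here. In rank of mean CPM in wild types, mt-Co1 went from 6 in Input to 1002 in IP, and mt-Cytb from 7 to 2379.

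**Figure D3:**
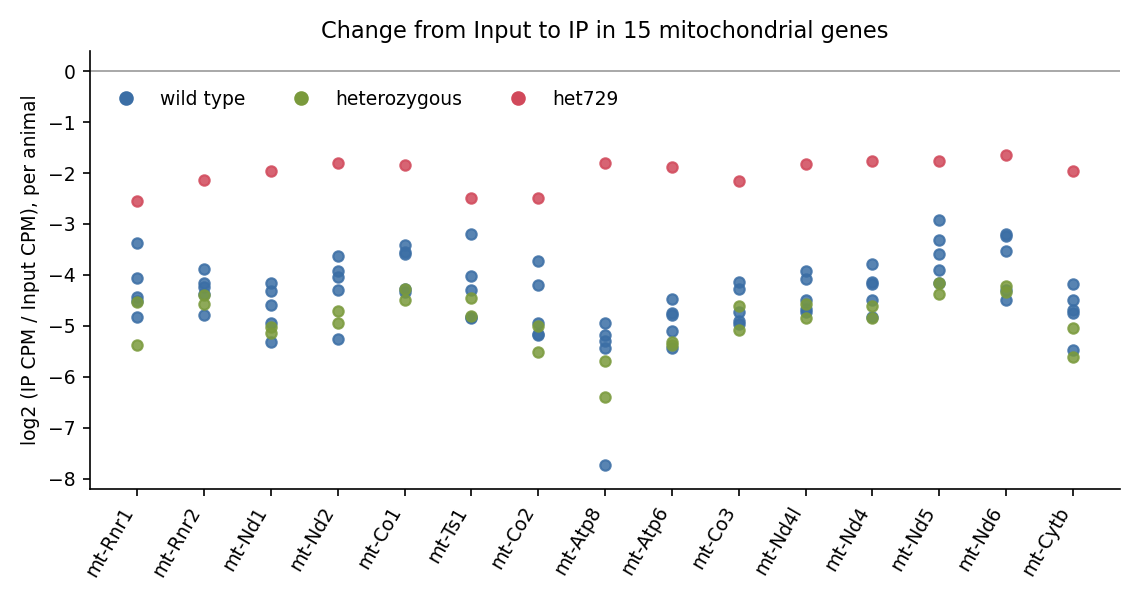
Log2 ratio of IP to Input CPM for the 15 mitochondrial genes with enough counts in IP, in gene order, each point 1 animal. All points lie below 0, and het729 has the smallest change in 15 of 15 genes.

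mt-Co1 had Input levels of 3262, 2990, 2910, 1764 and 2764 CPM in the wild types wt734, wt736, wt785, wtBT13 and wtBT14, and IP levels of 269.8, 254, 143, 166 and 143 CPM in the same animals. In the heterozygotes het729, het786 and hetBT13 its Input levels were 2673, 2930 and 2980 CPM, and its IP levels 743, 131 and 153 CPM. Input was above IP in each animal, with het729 highest among the IP libraries and wtBT13 lowest among the Input libraries. The log2 change was -3.83 ± 0.44 (SE, adjusted p = 0.000365, edgeR) in wild types and -3.57 ± 0.59 (adjusted p = 0.00300) in heterozygotes, or -4.40 without het729.

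mt-Cytb, the only mitochondrially encoded subunit of complex III, held 2960, 2615, 2821, 2090 and 2736 CPM in the Input of wt734, wt736, wt785, wtBT13 and wtBT14, and 115, 144, 63.6, 92.6 and 102 CPM in their IP. In het729, het786 and hetBT13 it held 2352, 2802 and 2748 CPM in Input and 603, 57.1 and 83.5 CPM in IP. Again the groups did not overlap, and het729 was the highest IP library. The log2 change was -4.70 ± 0.59 (SE, adjusted p = 0.000614, edgeR) in wild types and -4.25 ± 0.80 (adjusted p = 0.00572) in heterozygotes, or -5.34 without het729.

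mt-Nd1, a membrane subunit of complex I, held 2527, 2234, 2296, 1312 and 2098 CPM in the Input of the wild types in the same order, and 105, 125, 57.5, 65.7 and 68.3 CPM in IP. The heterozygotes held 1860, 2246 and 2074 CPM in Input and 479.98 (het729), 63.8 (het786) and 63.5 (hetBT13) in IP. Its levels were thus among the highest of the protein genes in Input, and its fall was larger than that of mt-Co1 in every wild type. The log2 change was -4.65 ± 0.55 (SE, adjusted p = 0.000457, edgeR) in wild types and -4.07 ± 0.73 (adjusted p = 0.00470) in heterozygotes, or -5.10 without het729.

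mt-Nd6, the only protein gene read from the other strand, is another complex I subunit, and its end overlaps that of mt-Nd5 by 14 bases on the opposite strand. It held 236, 193, 178, 154 and 238 CPM in wild-type Input in the order above and 20.4, 21.1, 7.95, 16.4 and 12.1 CPM in IP. In the heterozygotes it held 165, 189 and 189 CPM in Input and 52.8 (het729), 10.1 (het786) and 9.34 (hetBT13) CPM in IP. The log2 change was -3.68 ± 0.45 (SE, adjusted p = 0.000571, edgeR) in wild types and -3.16 ± 0.58 (adjusted p = 0.00497) in heterozygotes, or -4.29 without het729. It was among the smallest changes of the 15 genes, next to that of mt-Nd5, another complex I subunit, at -3.56 ± 0.44 in wild types. The other 7 protein genes among the 15 ran from -4.16 ± 0.53 for mt-Nd2 to -5.43 ± 0.72 for mt-Atp8, a small subunit of the ATP synthase.

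The ribosomal RNAs of the organelle fell by a similar factor to the messages. mt-Rnr1, the RNA of the small mitochondrial ribosomal subunit, held 2675, 2653, 2467, 716 and 1326 CPM in wild-type Input in the order above and 160.3, 123, 87.0, 68.6 and 57.8 CPM in IP. It held 2281, 2642 and 1858 CPM in the Input of het729, het786 and hetBT13, and 389, 63.9 and 80.5 CPM in their IP. Both BT-named wild types were below every other Input library. The log2 change was -4.25 ± 0.46 (SE, adjusted p = 0.000290, edgeR) in wild types and -4.14 ± 0.61 (adjusted p = 0.00188) in heterozygotes, or -4.96 without het729. mt-Rnr2, the RNA of the large subunit, held 2043, 1847, 1805, 658 and 1144 CPM in wild-type Input and 109, 126, 87.2, 36.9 and 41.2 CPM in IP. In the heterozygotes it held 1615, 1805 and 1351 CPM in Input and 369, 76.1 and 64.5 CPM in IP. Its log2 change was -4.27 ± 0.41 (SE, adjusted p = 0.000134, edgeR) in wild types and -3.69 ± 0.52 (adjusted p = 0.00151) in heterozygotes, or -4.49 without het729.

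In the 8 Input libraries the ribosomal RNA share of mitochondrial counts was separated by the form of the animals' names. It was 24.2% to 25.9% in the 5 animals named by a number alone and 14.0% to 20.4% in the 3 BT-named ones, without overlap. In IP the forms overlapped, at 20.3% to 28.8% against 15.5% to 23.2%. The IX and IXX libraries of hetBT14 held 24.8% and 24.9%, within or near the range of the number-named animals. No source used here says what the form of a name stands for, and its part in these shares was not tested.

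Transfer RNA genes were counted sparsely. mt-Ts1, a serine transfer RNA, held 2022 of their counts in the 8 Input libraries and 237 in the 8 IP libraries. In CPM it was at 81.8, 73.2, 77.5, 52.2 and 79.7 in wild-type Input and 5.02, 7.98, 2.72, 2.67 and 2.76 in wild-type IP, in the order above. The heterozygotes held 80.6, 82.6 and 70.5 CPM in Input and 14.3 (het729), 2.95 (het786) and 3.23 (hetBT13) CPM in IP. The log2 change was -4.08 ± 0.35 (SE, adjusted p = 1.52e-05, edgeR) in wild types and -3.62 ± 0.43 (adjusted p = 0.000189) in heterozygotes, or -4.63 without het729. For every 100 counts of mt-Co1 there were 2.37 to 3.02 of mt-Ts1 in Input (median 2.74) and 1.60 to 3.13 in IP (median 1.92). The mt-Co1 message is known to run on across the sequence opposite mt-Ts1, and without strand its reads cannot be told from those of the transfer RNA. Of the other transfer RNA genes, mt-Tp held 263 and mt-Tq 238 counts in the 8 Input libraries, and mt-Td, the lowest, held 4.

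The 21 transfer RNA genes other than mt-Ts1 summed to 1143 counts in the 8 Input libraries, or 39.5 CPM of raw totals (95% exact Poisson interval 37.2 to 41.8, counting error only). In the 7 IP libraries other than het729 they summed to 55 counts, 1.59 CPM (1.20 to 2.07), and in the IP of het729 to 25 counts, 4.68 CPM (3.03 to 6.91). mt-Ty, mt-Tk, mt-Tw, mt-Ts2 and mt-Td had 0 counts in all 8 IP libraries, which allows up to 0.0750 CPM each. Their Input counts were 4 to 24 over 8 libraries, so this depth shows little about them one by one.

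The members did not fall equally, and the makeup of mitochondrial RNA differed between the fractions. Shares of a library's mitochondrial counts are used here, so a rise of 1 gene lowers the others. mt-Co1 took 16.7% to 18.9% in the 8 Input libraries and 22.3% to 26.4% in the 7 IP libraries other than het729. mt-Nd5, the largest complex I message, took 3.91% to 5.18% in Input and 6.01% to 8.25% in those IP libraries. Both were higher in IP than in Input in 8 of 8 animals, het729 included, as was mt-Nd6, whose ranges overlapped.

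The members whose share was smaller without overlap in those 7 IP libraries were mt-Nd1 and both genes of the ATP synthase. mt-Nd1 went from 12.3% to 13.8% in Input to 9.49% to 11.4% in the 7 IP libraries. mt-Atp6 went from 6.10% to 7.67% to 4.15% to 4.95%. mt-Atp8, whose message also carries mt-Atp6 through the 43 shared bases printed above, went from 0.835% to 1.15% to 0.138% to 0.594%. Of 16 members compared (the 15 and mt-Nd3), 2 lay above and 3 below the Input range without overlap in the 7 IP libraries, and 11 overlapped; mt-Cytb was lower in IP in each of these 7 animals but overlapped, at 15.03% to 21.3% in Input and 10.2% to 15.99% in IP. mt-Nd3, another complex I subunit, passed the filter only through Input and is given by its ranges alone. They overlapped, at 0.185% to 0.321% in Input and 0.0330% to 0.230% in the 7 IP libraries. mt-Co2 and mt-Co3 of complex IV were lower in IP in 7 of 8 animals. The counts behind mt-Atp8 were as few as 4 in the IP of wt785.

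**Figure D4:**
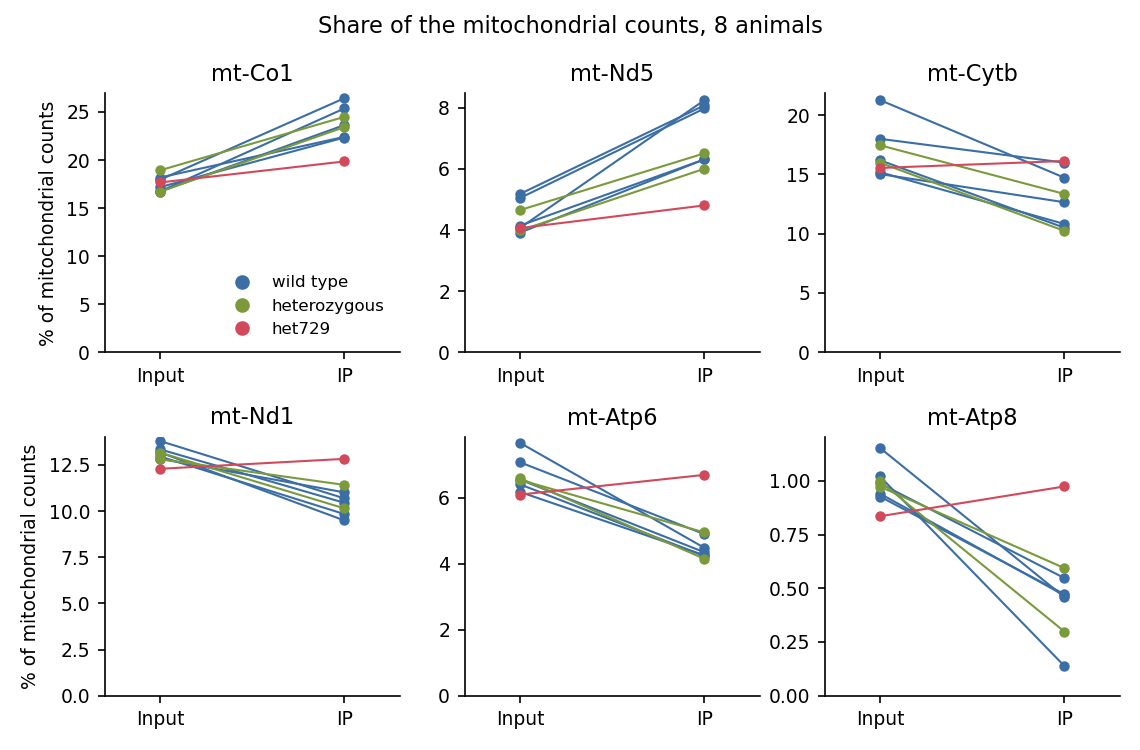
Percent of the mitochondrial counts of a library held by 6 genes, in Input and IP, each line 1 animal. mt-Co1 and mt-Nd5 rise in all 8 animals, and mt-Nd1, mt-Atp6 and mt-Atp8 fall in 7. The IP of het729 lies within the Input range in 5 of the 6 panels, and for 13 of all 16 members compared.

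The IP of het729 was closer to its own Input in makeup than any other IP library was. Over the 37 genes, 6.84% of its mitochondrial counts would have to move to another gene to match its Input, against 10.4% to 16.4% in the other 7 animals. Pairs of Input libraries differed by 1.51% to 13.5% (median 5.65%), and the IX and IXX libraries of 1 animal by 2.21% and 1.33%. The IP of het729 held 21246 mitochondrial counts, against 2833 to 7282 in the other 7 IP libraries. The part of this depth in its makeup and its spread of changes was not tested. Over all 16 members compared, the IP of het729 lay within the Input range for 13 and within the range of the other 7 IP libraries for 7. The 5 genes without overlap were picked from these same shares with its IP left out, so they give no separate support. For these 5, its IP took 19.9% for mt-Co1, 4.81% for mt-Nd5, 12.8% for mt-Nd1, 6.70% for mt-Atp6 and 0.974% for mt-Atp8.

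The spread of changes between genes was small in het729 as well. From the most to the least lowered of the 15 genes, log2 changes spanned 0.91 in het729 and 1.46 to 3.58 in the other animals. mt-Atp8 was the most lowered gene in those 7, and mt-Nd5 or mt-Nd6 the least lowered. Across the 12 protein genes with enough counts, the Spearman correlation of length with the log2 change was 0.552 for the median change of those 7 animals, 0.266 to 0.643 in each of them, and 0.028 in het729. This is a description over genes that share libraries and transcripts.

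In heterozygotes, all 15 members that passed the filter within IP alone were again called lower in IP than in Input. Of all genes tested, 22.1% were called lower and 22.6% higher (1900 genes lower and 5757 higher when scaled by library totals). The median log2 change of the 15 members was -3.73, against 0.04 for all genes, and -4.845 without het729, with 15 of 15 called lower. Leaving out het729 also narrowed the errors in wild types, because both genotypes share 1 estimate of the spread: the SE of mt-Co1 in wild types went from 0.44 to 0.13 and that of mt-Cytb from 0.59 to 0.16.

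The change from Input to IP did not differ between genotypes past the threshold for any member or any other gene. Called were 0% of 14797 genes by edgeR, with 454 at an unadjusted p below 0.05 and none of them among the 15 members, and 0 by DESeq2. The difference was positive for 15 of 15 members with a median log2 of 0.54, and negative for 15 of 15 with a median of -0.56 without het729. Without het729, 5 of the 15 members, mt-Co1, mt-Atp6, mt-Nd4, mt-Nd5 and mt-Cytb, had an unadjusted p below 0.05, as did 4.76% of all genes, and 0 genes were called by edgeR (adjusted p = 0.95 for each member). Without the filter on low counts, edgeR called 4 members as less lowered in heterozygotes: mt-Atp8 (log2 1.65, adjusted p = 1.58e-08), mt-Atp6 (0.76, adjusted p = 0.0149), mt-Co3 (0.78, adjusted p = 0.0117) and mt-Nd4l (0.98, adjusted p = 0.0324). That fit called 11 genes in all, and its calls are not given without het729. Per animal, the log2 ratio of IP to Input of mt-Atp8 was -1.79 in het729. It was -5.68 in het786 and -6.39 in hetBT13, within the -7.73 to -4.94 of the wild types. The SE of the mt-Atp8 difference was 0.23 without the filter and 1.20 with it, at a log2 of 1.65 in both.

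Within IP, the direction of the genotype difference turned on het729. All 15 members were higher on average in heterozygotes, by a median log2 of 1.02 (all genes 0.003), from 0.48 ± 0.60 (SE) for mt-Nd5 to 1.93 ± 0.93 for mt-Atp8. None passed edgeR's test (adjusted p = 0.981 for each), and 0% of 14755 genes were called, with 604 at an unadjusted p below 0.05, and 3 by DESeq2, no member among them. The IP of het729 was above every wild-type IP for 15 of 15 members. Without het729, all 15 were lower on average in heterozygotes, by a median log2 of -0.48, from -0.20 ± 0.39 for mt-Rnr2 to -0.75 ± 0.37 for mt-Nd2. Again none passed edgeR's test (adjusted p = 0.9996 for each), and 2 had an unadjusted p below 0.05, against 4.63% of all genes. For 1 of the 15, het786 and hetBT13 were both below every wild-type IP. How many of all genes lay so, or had het729 above every wild-type IP, is not given here.

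**Figure D5:**
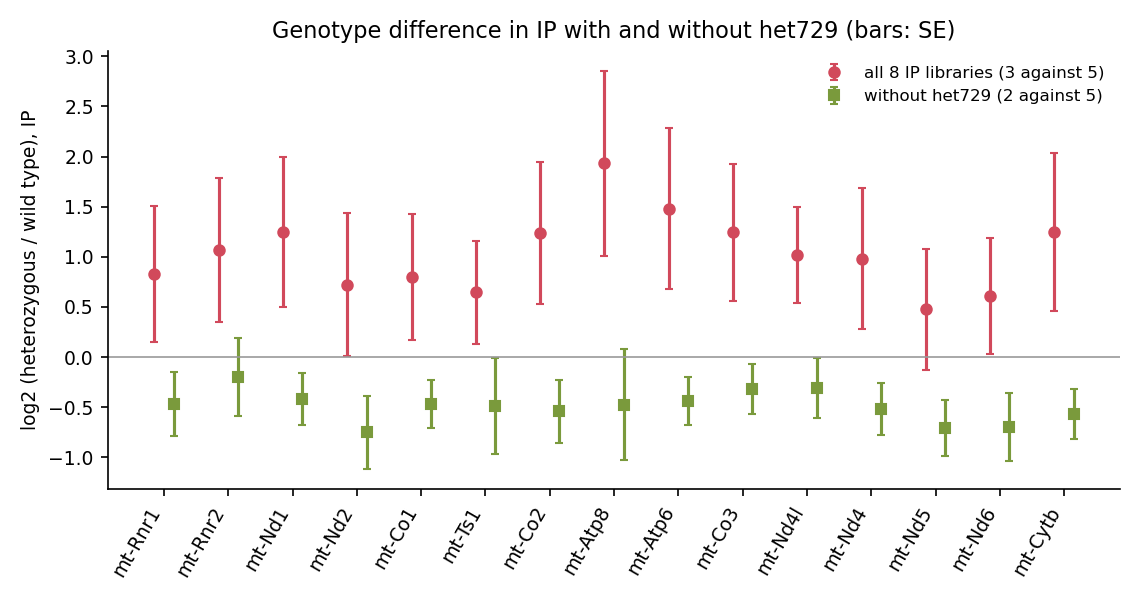
Log2 difference of heterozygous from wild-type IP for 15 mitochondrial genes, with all 8 libraries and without het729, bars are SE of edgeR's fit. All 15 lie above 0 with het729, from 0.48 to 1.93, and all 15 below 0 without it, from -0.75 to -0.20.

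Within the forms of the names, the median log2 difference in IP (mean log2 of CPM plus 0.5) was 0.74 among number-named animals (2 heterozygotes and 3 wild types), -0.57 there without het729, and -0.15 among BT-named ones (1 and 2). With het729 the forms thus differed in direction, and without it both were negative, for 14 of 15 members among number-named and 11 of 15 among BT-named animals. Each form then has a single heterozygote.

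In Input, the levels of the genotypes overlapped. The 37 genes took 1.50% ± 0.357 of counts in wild types (SD, n = 5) and 1.47% ± 0.0965 in heterozygotes (n = 3). The levels of 15 of 15 members overlapped between genotypes, and the share of all genes that did so is not given here. The median log2 difference was -0.020 over the 15 members, with 9 negative and 6 positive, from -0.14 ± 0.21 (SE) for mt-Nd2 to 0.21 ± 0.46 for mt-Rnr1. None was called by edgeR (adjusted p from 0.833 to 0.997), as were 0% of 13870 genes, with 979 at an unadjusted p below 0.05 and none of them among the 15, and 0 by DESeq2. The smallest SE was that of mt-Cytb, 0.096 around a log2 difference of 0.0015. By the form of the names, the median log2 difference in Input (of CPM plus 0.5) was 0.23 among BT-named and -0.16 among number-named animals, or -0.058 among the latter without het729. wtBT13 had the lowest Input level of all 8 animals for 15 of 15 members.

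Nuclear genes that serve the same organelle changed less. Of 32 tested genes for copying, processing and stabilising mitochondrial RNA and DNA, 20 were called higher and 1 lower in wild-type IP (median log2 0.47), or 29 and 0 when scaled by library totals. Of all genes tested, 28.5% were called higher and 25.6% lower in wild types, and 22.6% and 22.1% in heterozygotes. By library totals, 6379 of all 14797 genes were called higher and 2377 lower in wild types (median 0.26). In heterozygotes these were 5757 and 1900 (median 0.30). Lrpprc, which stabilises mitochondrial messages, rose by 1.13 ± 0.09 (SE, adjusted p = 3.01e-09, edgeR), and Pnpt1, a subunit of the RNA-degrading complex of the organelle, by 1.20 ± 0.19 (adjusted p = 1.48e-05). Elac2, which cuts the 3′ ends of transfer RNAs, rose by 0.90 (adjusted p = 3.16e-07), Tfb1m, which methylates the small ribosomal RNA, by 1.07 (adjusted p = 6.44e-05), and Supv3l1, the helicase that works with Pnpt1, by 0.71 (adjusted p = 1.71e-05). The remaining 3 of the 8 with the smallest p were Mterf3 (0.76), Mterf2 (0.78) and Mtpap, the poly(A) polymerase of the organelle (0.47). In heterozygotes 19 were called higher and 1 lower (median 0.56), or 26 and 0 (median 0.81) when scaled by library totals. The gene called lower was Grsf1, an RNA-binding protein of mitochondrial RNA granules, in both genotypes (-0.26 ± 0.08 SE, adjusted p = 0.00685, in wild types and -0.40 ± 0.10, adjusted p = 0.00283, in heterozygotes), and with library totals this call was lost in both.

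Protein genes of the mitochondrial ribosome, 80 tested, had 34 called higher and 4 lower in wild-type IP (median log2 0.18) and 30 higher and 4 lower in heterozygotes (median 0.20), where 28.5% and 22.6% of all genes were called higher. Mrpl38 rose by 0.63 ± 0.08 (SE, adjusted p = 5.5e-07, edgeR) and Mrps27 by 0.83 ± 0.10 (adjusted p = 5.97e-07) in wild types. The 4 called lower in wild types, named after their values were seen, were Mrpl50, Mrps33, Mrps24 and Mrpl42, at -0.37 to -0.25. Scaled by library totals, 62 of the 80 were called higher and 0 lower in wild types (median 0.40), and 57 and 0 in heterozygotes (median 0.46). In that scaling, 6379 of all 14797 genes were called higher in wild types (median 0.26) and 5757 in heterozygotes (median 0.30). Nuclear genes of oxidative phosphorylation, 103 tested, had 72 called lower and 6 higher in wild types (median -0.34), where 25.6% of all genes were called lower. In heterozygotes 68 of them were called lower and 7 higher (median -0.37), where 22.1% of all genes were called lower. Scaled by library totals, 36 were called lower and 16 higher in wild types (median -0.12) and 34 and 14 in heterozygotes. Of all 14797 genes, 2377 were then called lower in wild types and 1900 in heterozygotes. Cox7a2l fell by 1.01 ± 0.08 (adjusted p = 8.16e-10, edgeR) and Atp5j by 0.95 ± 0.08 (adjusted p = 6.22e-09). The lowest of the 103 oxidative phosphorylation genes was at a log2 change of -2.26 in wild types and -2.50 in heterozygotes. In wild types all changes in the 3 lists were smaller than those of the 15 members, whose smallest was -3.56. Between genotypes, no gene of the 3 lists was called in either fraction. The median log2 difference of the oxidative phosphorylation genes was 0.12 in IP (94 of 103 positive, against 7481 of 14755 for all genes). In Input it was 0.17 (98 of 101 positive, against 7112 of 13870). These genes share libraries, and the signs are given with het729 only.

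Some other RNAs also stood apart in the IP of het729, while others lay within the range of the other IP libraries. The 7 nuclear-retained RNAs in the table, such as Malat1 and Meg3, summed to 904.5 CPM in the IP of het729, above the 307 to 613 CPM of the other 7 IP libraries, and to 2474 to 3101 CPM in Input. The log2 ratio of IP to Input of this sum was -1.62 in het729 and -3.01 to -2.02 in the other animals. The nuclear oxidative phosphorylation genes summed to 23306 CPM in its IP, above the 17585 to 21224 of the other 7, but their log2 ratio of IP to Input, -0.33, lay within that of the other animals, -0.65 to -0.30. For the genes that copy, process and stabilise mitochondrial RNA and DNA this ratio was 0.22 in het729, below the 0.29 to 0.41 of the others. For mitochondrial ribosome genes it was 0.12 in het729, within the 0.05 to 0.33 of the others. The 6 oligodendrocyte markers summed to 1399 CPM in its IP, against 871 to 1438 in the others, 6 of which were lower, and to 3525 to 4878 in Input, where het729 was lowest. Their log2 ratio of IP to Input was -1.33 in het729, outside the -2.37 to -1.64 of the other animals. The 4 precursor markers summed to 90.3 CPM against 45.3 to 92.4, with a log2 ratio of -1.49 against -2.54 to -1.30. Astrocyte markers (782 CPM against 654 to 1029), interneuron markers (574.5 CPM against 481 to 634) and microglial markers (55.3 CPM against 39.1 to 68.2) lay within the range of the other IP libraries, and no marker of these lists was at 0 in all IP libraries. The part of these RNAs in the mitochondrial result of het729 was not tested.

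Counts of nuclear models that match mitochondrial genes fell in IP as well. Where bases are shared, their reads cannot be told from those of the members, so a change of nuclear RNA itself is not shown. Of 15 nuclear gene models that share 50-base words with mitochondrial genes, 8 are in the table. Gm10222 (chromosome 1, 24612407 to 24612700), a copy of mt-Nd4l, held 2961 counts in the 8 Input libraries against 2985 for mt-Nd4l itself. Gm13340 (chromosome 2, 22588103 to 22589647), which matches mt-Co1, held 11872 against 75058. Both were called lower in wild-type IP by edgeR, Gm10222 by a log2 of -4.37 (adjusted p = 0.000522) and Gm13340 of -3.94 (adjusted p = 0.000371), close to the changes of mt-Nd4l (-4.37) and mt-Co1 (-3.83).

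By correlation of log2 CPM with the mean of the 15 members over 16 libraries, the most alike of 10314 other genes were Gm13340 (r = 0.998), Gm13339 (r = 0.996) and Gm10222 (r = 0.995), all 3 matching mitochondrial genes in sequence, then Fth1, the heavy chain of ferritin (r = 0.992), and Gm6977 (r = 0.990). Within the 8 IP libraries alone they were Gm13340 (r = 0.984), Rab6a (r = 0.970), H3f3b (r = 0.968), Dazap2 (r = 0.962) and Dnlz (r = 0.961), and without het729 these correlations were 0.923, 0.825, 0.809, 0.826 and 0.856. The points share the split between fractions in the 16 libraries and the high level of het729 in the 8.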

How the data were processed

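RNA was measured in 20 libraries of 10 mice, made with Smart-seq2 per the labels' protocols, which records neither strand nor single molecules. The authors deposited raw counts per Ensembl gene, and per the submitters' processing notes the tools include HTSeq and the build is mm10. The aligner, its version, the gene annotation and the use of strand are not given in the sources used here. Of 25317 identifiers 24873 were matched to a symbol and 444 were not; positions, sequences and 50-base words come from GENCODE vM21.

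Counts were tested with edgeR 4.0.16 in R 4.3.3 (filterByExpr with a count minimum of 10, TMM scaling, robust quasi-likelihood F test, Benjamini-Hochberg adjusted p below 0.05 over all genes tested). An SE is the log2 change divided by the root of F. IP and Input were compared in 16 libraries with the animal as a block, since both come from 1 lysate; their deviations from the group means correlated at 0.054 to 0.217 within animals. Genotypes were compared in 3 against 5 libraries per fraction. Each fit was tested on simulated data. CPM are TMM-scaled over all 20 libraries, and shares use raw totals. Values in every library are given for the 2 ribosomal RNAs, the 3 protein genes highest in wild-type Input, mt-Nd6 and the highest transfer RNA; mt-Atp8, mt-Nd5 and others are named for the range of a list. Alternatives were DESeq2 1.42.0, library totals, no filter, no block, the form of the names, the IX and IXX libraries, protein genes alone and each animal left out. The members and gene lists were chosen with earlier results of these data known. Protein sequences were not used here.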

Additional observations from a re-analysis of the deposited data

Results flagged for a closer look

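In 47 groups of 5 wild-type values tested for a single far value, 3 were found, where chance gives about 5%. mt-Co2, which encodes a copper-binding subunit of complex IV, was at 15.2 CPM in the IP of wt736 against 7.53 to 9.54 in the other wild types; its bases are shared in full with nuclear models. mt-Ts1 was at 52.2 CPM in the Input of wtBT13, against 73.2 to 81.8 in the others, and wtBT13 was lowest in Input for all 15 members described. The log2 ratio of IP to Input of mt-Atp8 was -7.73 in wt785, against -5.43 to -4.94 in the others, and rests on 4 counts in that IP.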

How the results depend on the processing

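All 15 members were called lower in IP in both genotypes with DESeq2, library totals, no low-count filter, no replicate block and each animal left out. Without the animal as a replicate block the median log2 change was -4.29 in wild types, -3.32 in heterozygotes and 1.07 for the difference of genotypes, with 15, 15 and 0 members called; the block changed no call of a member. With library totals in place of TMM the median of all genes was 0.26 in wild types and 0.30 in heterozygotes, and that of the members -4.05 and -3.44. Without the low-count filter, and with het729 included, 4 members, of 11 genes in all, were called in the difference of genotypes. Between genotypes in Input, 0 members, of 28 genes in all, were called without the filter. With the filter 0 genes were called in each, and the cause was not tested.

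With each animal left out in turn, the median difference of genotypes in the change from Input to IP ran from -0.56 to 1.15, and that of mt-Rnr1 from -0.70 to 0.74, mt-Rnr2 from -0.21 to 1.06, mt-Co1 from -0.56 to 0.78, mt-Cytb from -0.63 to 1.24, mt-Nd1 from -0.44 to 1.22, mt-Nd6 from -0.61 to 0.995 and mt-Ts1 from -0.54 to 0.87. Within IP the median ran from -0.48 to 1.42, and mt-Rnr1 from -0.47 to 1.23, mt-Rnr2 from -0.20 to 1.46, mt-Co1 from -0.47 to 1.18, mt-Cytb from -0.57 to 1.72, mt-Nd1 from -0.42 to 1.67, mt-Nd6 from -0.70 to 0.99 and mt-Ts1 from -0.49 to 1.02. Each lowest value there was without het729. In Input the median ran from -0.14 to 0.049, and mt-Rnr1 from -0.021 to 0.34, mt-Rnr2 from -0.11 to 0.22, mt-Co1 from -0.067 to 0.13, mt-Cytb from -0.086 to 0.073, mt-Nd1 from -0.16 to 0.054 and mt-Ts1 from -0.0037 to 0.17, with the lowest without wtBT13. With the IX and IXX libraries added, summed per animal, the Input median was 0.0051, mt-Cytb -0.028, mt-Nd1 0.015 and mt-Ts1 -0.037. mt-Cytb in Input was -0.062 with library totals, -0.013 without the filter and -0.0012 with the form of the names as a covariate. The heterozygous Input share was 1.11% for protein genes alone and 1.61% of TMM-scaled totals. The cause of these turns around 0 was not tested.

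The genotype comparison is limited by the 3 heterozygotes, of which 1 stands apart, and by few mitochondrial counts in IP. These were 2833 to 7282 in the 7 IP libraries other than het729, and 21246 in that of het729.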
